A study of Mus musculus with 162 samples.

Results

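Mup3, Mup4, Mup5, Mup6, Mup20 and Mup21 are 6 genes of the mouse major urinary protein (MUP) family, described here in liver by fasting time and beside 8 other organs. They were taken from the count table by symbol, with no measured value in the rule, and are 6 of its 53686 rows and 6 of its 48 rows for Mup genes and pseudogenes. MUPs are small secreted lipocalins that carry volatile odorants and pass from blood into urine, where they act as scent signals between mice. In males the liver is their main source, and the hepatic genes are known to depend on the pulses of growth hormone acting through STAT5, and on androgens and glucocorticoids. Other genes of the family are known from exocrine glands of the head, and Mup20 encodes darcin, a pheromone of male urine that attracts females.

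The study asked how organs respond to short-term fasting (STF) and used adult C57BL/6J males (8–9 weeks of age) fasted for 2, 8, 12, 18 or 22 h, with males fed ad libitum as the 0 h group. Each of the 6 groups had 3 mice, 18 in all, and 9 organs of every mouse were sequenced as bulk stranded mRNA libraries: liver (LIV), stomach (STM), olfactory bulb (OB), brain (BRN), cerebellum (CBL), brainstem (BST), and brown (iBAT), perigonadal (pgWAT) and subcutaneous (psWAT) adipose tissue. All mice had water and were killed in the same part of the early dark phase, so food was withdrawn at another clock time for each duration, and the duration of fasting and the clock time of withdrawal cannot be told apart. The 18 LIV libraries held 6959200 to 12451777 counts, and levels are given as counts scaled to a common library total (CPM). In bulk libraries fewer cells of a type and less RNA per cell cannot be told apart.

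The LIV libraries carried the markers of their label. Alb, the gene of serum albumin, ranged from 46608 to 68283 CPM (median 60224), and the 5 hepatocyte markers together from 69193 to 97075 CPM (median 86633). Markers of other liver cells were far lower: those of Kupffer cells summed to 99.2 to 248 CPM (median 178), of sinusoidal endothelium to 66.2 to 112.5 CPM (median 94.0), of stellate cells to 80.9 to 148.3 CPM (median 118.1), and of cholangiocytes to 6.14 to 14.7 CPM (median 8.65). Red blood cell markers summed to 207 to 929 CPM, lymphocyte markers to 1.60 to 4.78 CPM, neutrophil markers to 0.357 to 15.2 CPM, adipocyte markers to 0.482 to 12.3 CPM and acinar cell markers to 16.3 to 30.4 CPM, the last nearly all from Cela1. In a joint edgeR test of the 6 times (adjusted p under 0.05), 2 of 5 hepatocyte, 1 of 5 periportal, 4 of 5 pericentral, 1 of 4 endothelial and 1 of 4 stellate cell markers differed, where 16% of all tested genes did. The periportal markers, led by Cyp2f2, summed to 1537 to 3208 CPM (median 2056), and the pericentral markers, led by Cyp2e1, to 4668 to 9848 CPM (median 6860).

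Some LIV libraries stood apart. Replicates 1 and 2 at 0 h were closer to each other than any other same-time pair of LIV libraries: the mean squared difference of their counts was 2.27 times the sampling variance, while the 18 pairs had a median of 26.9 and the next lowest was 10.8. They differed by more than sampling noise, which does not show that they came from separate mice, and were kept separate as labelled and also tested as 1 summed sample, with Mup21 at 377 counts in the former and 534 in the latter. Pairs as close occurred in other organs, the closest at 1.91 (replicates 1 and 3 of BST at 22 h). Replicate 3 at 0 h had the lowest Mup3 and Mup21 of all 18 LIV libraries, and replicate 3 at 18 h the lowest Mup20 and the lowest level of every other protein coding Mup gene tested, so results that rest on either are given with and without it. The 0 h and 2 h libraries and replicates 1 and 2 at 8 h were sequenced in lane 1, and replicate 3 at 8 h and all later libraries in lane 2. The lane and the times of 12, 18 and 22 h are therefore separated only through the 8 h libraries, the only time found in both lanes.

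In LIV, 3 of the 6 genes had counts in all 18 libraries and 3 had almost none. Mup3 was among the most abundant transcripts of the organ, with the 23rd highest mean (4209 CPM), above Apoc3, Serpina1c, Hpx and Rbp4, genes of plasma proteins. Mup20 was 56th (1975 CPM) and Mup21 was 4043rd (32.9 CPM). Because the genes differ in length, they were compared per kilobase of exon. Mup3 had 3941 CPM per kilobase, above Mup11 (3526) and Mup17 (3271), the most abundant of the other Mup genes, and Mup20 had 2128. In CPM Mup11 was above Mup3, at 5558. The exon length was 1576 bases for Mup11 and 1068 for Mup3, while the transcripts used for the windows below had 930 and 984. With these transcript lengths Mup11 would stay above Mup3, so the order of these 2 genes depends on the length used. All these levels are of uniquely mapped reads, of which the other genes lose more. All 150-base windows of Mup3 occur in no other Mup gene, against 21.8% of those of Mup11 and 59.6% of those of Mup17. Mup21 had 48.5 CPM per kilobase, and Mup6 had 0.214. The label of liver Mup genes thus fitted Mup3, Mup20 and Mup21, and not Mup4, Mup5 and Mup6.

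Mup3, an abundant gene of the family's distal end, had similar levels at every time. Its level was 4320, 4329 and 3308 CPM at 0 h, 4158, 3784 and 4150 CPM at 2 h, and 4552, 4264 and 4206 CPM at 8 h. It was 4577, 4125 and 3684 CPM at 12 h, 5078, 3961 and 3559 CPM at 18 h, and 4243, 4413 and 5045 CPM at 22 h. The lowest library was replicate 3 at 0 h and the highest replicate 1 at 18 h, and the libraries of every fasting time overlapped those of 0 h. Group means ran from 3986 ± 587 CPM (SD, n = 3) at 0 h to 4567 ± 423 CPM at 22 h, a difference within the spread of the replicates. The edgeR log2 fold change against 0 h was 0.00082 at 2 h, 0.02 at 8 h, 0.02 at 12 h, −0.05 at 18 h and 0.14 at 22 h (SE 0.13 each), with a 95% interval of −0.13 to 0.42 at 22 h. The values at 2, 8, 12 and 18 h changed sign when single libraries were left out, and without replicate 3 at 0 h the 2 h value was −0.12. Within lane 1 alone Mup3 differed from 0 h by −0.0017 at 2 h and 0.03 at 8 h on the log2 scale.

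Mup20, the darcin gene, was more variable than Mup3. Its level was 1755, 1632 and 1934 CPM at 0 h, 1414, 2114 and 2404 CPM at 2 h, and 1990, 1376 and 1705 CPM at 8 h. It was 1803, 2056 and 1787 CPM at 12 h, 2580, 2353 and 1288 CPM at 18 h, and 2671, 2498 and 2190 CPM at 22 h. All 3 libraries at 22 h lay above the 3 at 0 h, and the libraries of the other times overlapped those of 0 h. Among 15 comparisons of Mup3, Mup20 and Mup21 with 0 h in LIV, this was the only 1 without overlap. The share of all genes that separate so at 22 h is not given. The means were 1774 ± 151.6 CPM at 0 h and 2453 ± 244 CPM at 22 h (SD, n = 3). In edgeR this was a log2 fold change of 0.42 (SE 0.22, 95% interval −0.03 to 0.87) with an adjusted p of 0.29, short of the threshold, in a comparison in which 0.849% of all tested genes were called. With the lane as a term the 22 h value was 0.32. At the other times the log2 fold change was 0.15 at 2 h, −0.17 at 8 h, 0.06 at 12 h and 0.10 at 18 h. The 18 h value was 0.34 without replicate 3 at 18 h and −0.07 without replicate 1 at 18 h, and the 12 h value was −0.04 with the lane as a term.

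Mup21, the last gene of the cluster, had its greatest spread among the fed mice. Its level was 46.7, 64.7 and 17.3 CPM at 0 h, 27.02, 23.7 and 31.0 CPM at 2 h, and 47.99, 31.1 and 27.5 CPM at 8 h. It was 40.5, 24.4 and 25.3 CPM at 12 h, 24.6, 24.6 and 26.6 CPM at 18 h, and 37.7, 36.99 and 33.8 CPM at 22 h. The 0 h group held both the highest library (replicate 2) and the lowest (replicate 3) of all, so every later time lay inside its range. The means were 42.9 ± 23.9 CPM at 0 h and 25.3 ± 1.19 CPM at 18 h (SD, n = 3). The edgeR log2 fold change was −0.68 at 2 h, −0.39 at 8 h, −0.56 at 12 h, −0.89 at 18 h and −0.31 at 22 h (SE 0.34 to 0.35), and at 18 h the 95% interval was −1.64 to −0.15 with an adjusted p of 0.12. The 0 h libraries decided the size: at 2, 8, 12, 18 and 22 h the values were −0.25, 0.04, −0.13, −0.47 and 0.12 without replicate 2 at 0 h, and −1.05, −0.76, −0.93, −1.27 and −0.68 without replicate 3 at 0 h. In the latter case the 18 h value passed, with an edgeR adjusted p of 0.0026. With the lane as a term it was −0.45, and the 12 h and 22 h values were −0.11 and 0.14. Over the processing alternatives the adjusted p at 18 h ran from 4.2e-06, with no filter on low counts, to 0.77, and the log2 fold change from −0.90 to −0.45. The pericentral markers summed to 9491, 9848 and 6614 CPM at 0 h and to 5775, 5824 and 6352 CPM at 18 h. Replicate 3 at 0 h had the highest sums of Kupffer cell markers (248 CPM) and cholangiocyte markers (14.7 CPM). The part of these in the Mup21 levels was not tested.

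**Figure D1:**
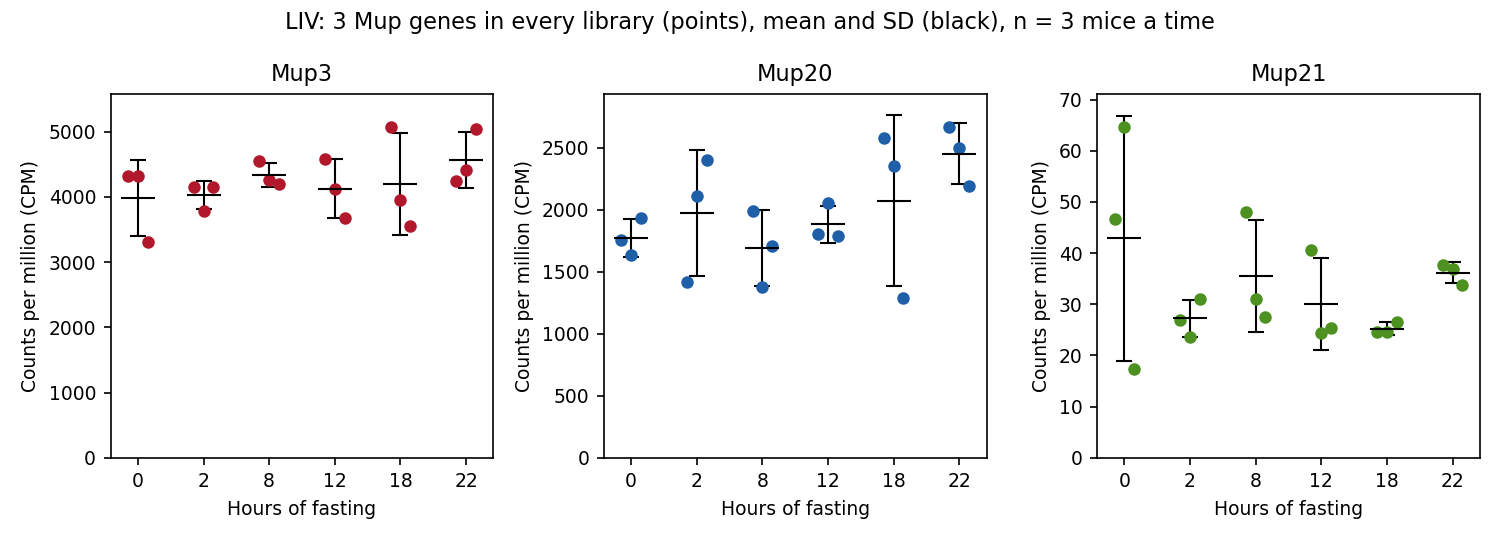
CPM of Mup3, Mup20 and Mup21 in each LIV library by hours of fasting (points, 3 mice a time), with the mean of each time and its SD. Mup3 stays between 3308 and 5078 CPM, and Mup21 has its highest and lowest libraries at 0 h. The 3 libraries of Mup20 at 22 h sit above those at 0 h, the only such separation among 15 comparisons with 0 h.

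Mup4, Mup5 and Mup6 were at or near 0 in LIV. Mup4 had 1 count in the 18 libraries together, in replicate 1 at 18 h, and Mup5 had 0 counts of 162443674, which allows up to 0.0185 CPM. Mup6 had 35 counts: 3, 2 and 0 at 0 h, 0, 0 and 1 at 2 h, 1, 2 and 5 at 8 h, 0, 1 and 3 at 12 h, 0, 1 and 5 at 18 h, and 4, 5 and 2 at 22 h. Counts of 0 appeared at 4 of the 6 times. In CPM the 2 h libraries lay below those of 22 h. They lay below those of 8 h by depth alone, as the nearest libraries had 1 count each (0.114 and 0.117 CPM). Every other pair of times overlapped, and the share of all genes that separate so is not given. Mup4 and Mup6 were tested only with no filter on low counts, where edgeR called neither at any time, in the joint test or in the trend. In a single LIV library 3 counts, the limit that a count of 0 allows, were worth 0.241 to 0.431 CPM. Smaller differences of these 3 genes between single libraries were not detectable at this depth. Such limits cover counting error only.

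Fasting time was tested over all 14023 LIV genes with enough counts, and a gene was called where its adjusted p was under 0.05 and its log2 fold change beyond 1 in size. Mup3, Mup20 and Mup21 passed the filter on low counts, and edgeR called 0 of these 3 at each time, where it called 0.057% of all tested genes at 2 h, 0.128% at 8 h, 1.96% at 12 h, 2.17% at 18 h and 0.849% at 22 h. In the joint test of the 6 times it called 0 of 3, with 16% of all genes called, and in the trend over hours 0 of 3, with 9.05% of all genes called. At an unadjusted p under 0.05 the edgeR counts were 0, 0, 0, 1 and 0 at the 5 times, 0 in the joint test and 0 in the trend. DESeq2 gave 1, 0, 0, 1 and 0, then 0 and 0, and limma 0 throughout, and both called 0 of the 3 in every test. The adjusted p of the joint test in edgeR was 0.84 for Mup3, 0.33 for Mup20 and 0.35 for Mup21, and the slopes per 10 h of fasting were 0.03 (SE 0.05), 0.13 (SE 0.08) and −0.13 (SE 0.13) on the log2 scale. Without replicate 3 at 0 h the joint test called Mup21 (adjusted p 0.0065), as it did with no filter on low counts (adjusted p 1.2e-05). In the edgeR fit with no filter behind the single-time and joint tests, the degrees of freedom were 307140 for each gene of the 6 tested. With the filter they were 13.9 to 21.3, so the low p values with no filter rest on a spread shared by all genes.

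Mup3 varied little between mice. Its CPM had a coefficient of variation of 10.9% over the 18 LIV libraries, and its highest library was 1.54 times its lowest. Among the 200 genes of highest mean CPM the median coefficient was 18.3%, and 32 had a lower one than Mup3. For Mup20 the coefficient was 21.2% and the ratio 2.07, and for Mup21 34.9% and 3.74. The 15 other protein coding Mup genes had coefficients of 26.97% at the lowest, 36.3% at the median and 56.8% at the highest, and Mup17 differed 28.2 times between its lowest and highest library. These differences in variation were not tested.

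The other protein coding Mup genes moved together from mouse to mouse. Correlations here are Pearson's r of log2 CPM (TMM scaled, 0.5 added) over the 18 LIV libraries. Among all pairs of the 15 the median was 0.95 (lowest 0.86), a description of points that share libraries, lanes and, for these genes, nearly all of their sequence. Mup20 followed them with a median r of 0.79 (0.60 to 0.85), Mup3 less closely with 0.36 (0.25 to 0.52), and Mup21 hardly with 0.09 (0.04 to 0.29). Among the 3 genes themselves r was 0.58 for Mup3 and Mup21, 0.32 for Mup3 and Mup20, and −0.04 for Mup20 and Mup21. All 15 others were lowest in replicate 3 at 18 h, and 14 were highest in replicate 2 at 22 h, with Mup9 highest in replicate 3 at 0 h. All Mup rows together took 0.815% of the counts of replicate 3 at 18 h (Wilson 95% interval 0.810% to 0.821%) and 3.21% of those of replicate 2 at 22 h (3.199% to 3.22%). The 6 genes made up from 21.4% of the Mup counts, in replicate 2 at 12 h, to 59.79%, in replicate 3 at 18 h, shares that are raised by the loss of reads that the other genes have in common.

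At 18 h the log2 fold change against 0 h was below 0 in 15 of 15 other protein coding Mup genes, with a median of −0.98 (−1.51 to −0.43) beside 0.01 over all tested genes. Without replicate 3 at 18 h, the lowest library of all 15, the median was −0.52 (−1.03 to −0.13), and without replicate 1 at 18 h −1.59. The 15 vary together between mice and share sequence, so they are not 15 separate observations. Mup11, the most abundant of them, had 5019, 4992 and 6341 CPM at 0 h and 6168, 3717 and 1267 CPM at 18 h. The groups overlapped: all Mup rows together took 1.96%, 1.92% and 2.32% of the counts at 0 h and 2.37%, 1.54% and 0.815% at 18 h. Its log2 fold change there was −0.69, that of Mup17 was −1.15 and that of Mup1 was −1.30 (SE 0.45), the last with an edgeR adjusted p of 0.088. edgeR called 0 of the 28 Mup rows tested in LIV (the 3 genes, the 15 others and 10 pseudogenes) at any time, in the joint test or in the trend. At an unadjusted p under 0.05 it found 2, 0, 0, 6 and 1 of the 28 at the 5 times, 4 in the joint test and 0 in the trend. These counts are given without the share of all genes at that level. In the joint test 16% of all genes passed even the adjusted p in edgeR. DESeq2 called 2 at 18 h (Mup1 and Mup12), with 2.70% of all genes called, and 9 in the joint test, with 25.6% of all genes called, and limma called 1 at 18 h (Mup-ps14) and 0 in the joint test, with 8 at an unadjusted p under 0.05. The count rested on replicate 1 at 18 h: without it, edgeR made 10 calls of Mup rows over the 5 times and 7 in the joint test, none of them a gene of the 6, while it called 2.85% of all genes at 18 h and 20.7% in the joint test. At 8 h the 15 others were also all below 0 h (median −0.53, or −0.33 without replicate 2 at 8 h, lowest edgeR adjusted p 0.47). At 22 h 1 of 15 was (median 0.35), with a median of 0.14 without replicate 2 at 22 h and of −0.04 with the lane as a term. In replicate 3 at 18 h the hepatocyte markers summed to 87273 CPM, near their median, the periportal markers to 3208 CPM, their highest, and the cholangiocyte markers to 6.14 CPM, their lowest. The pericentral markers summed to 5775, 5824 and 6352 CPM at 18 h, all below the 9491, 9848 and 6614 CPM of 0 h. What part these markers had in the Mup levels was not tested.

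How far a count can be trusted to its own gene differs within the family. Only uniquely mapped read pairs were counted, so reads from stretches shared by several genes were lost. Of the 150-base windows of each transcript (Gencode M21), all of those of Mup3, Mup4, Mup5, Mup6 and Mup21 occurred in no other Mup gene, and 68.9% of those of Mup20 did, the rest being shared mainly with the pseudogene Mup-ps19. Allowing 2 mismatches, 92.3% of the windows of Mup3 and 87.9% of those of Mup21 were unique, with 64 windows of each within 2 mismatches of the other gene. For 16 other coding Mup genes the exact share was 0% to 59.6% (median 21.4%), and their transcripts were 98.3% to 99.8% identical to each other (median 99.0% over 120 pairs). The closest relative was 96.1% identical for Mup3 and Mup21, which are each other's nearest, 92.8% for Mup4 and Mup5, also each other's nearest, 92.3% for Mup6 with Mup4 and 91.6% for Mup20 with Mup4. Levels and correlations of the 15 others are therefore uncertain gene by gene, while those of the 6 rest mostly on sequence of their own.

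The 6 genes lie at both ends of the Mup cluster on chromosome 4, which in the GRCm38 annotation spans chr4:59956804-62150863, 2194060 bases with 47 Mup rows. Mup4 (chr4:59956804-59960710, minus strand) and Mup6 (chr4:59964294-60007274, plus strand) are its first genes. Mup5 (chr4:61831319-61835233), Mup20 (chr4:62050234-62054158), Mup3 (chr4:62083476-62087342) and Mup21 (chr4:62147932-62150863) lie in this order at the far end, all on the minus strand, with pseudogenes between Mup5 and Mup20. Both ends thus hold genes with almost no LIV counts: Mup4 and Mup6 on one side and Mup5 on the other. The nearest genes outside the family were much lower than Mup3: Slc46a2 had 0 counts in every LIV library, Snx30 a median of 5.37 CPM, Inip 3.99 CPM, Zfp37 0.203 CPM, Slc31a2 8.61 CPM and Fkbp15 36.6 CPM. For the 4 of these that were tested, the joint edgeR test of the 6 times gave adjusted p from 0.17 to 0.91.

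**Figure D2:**
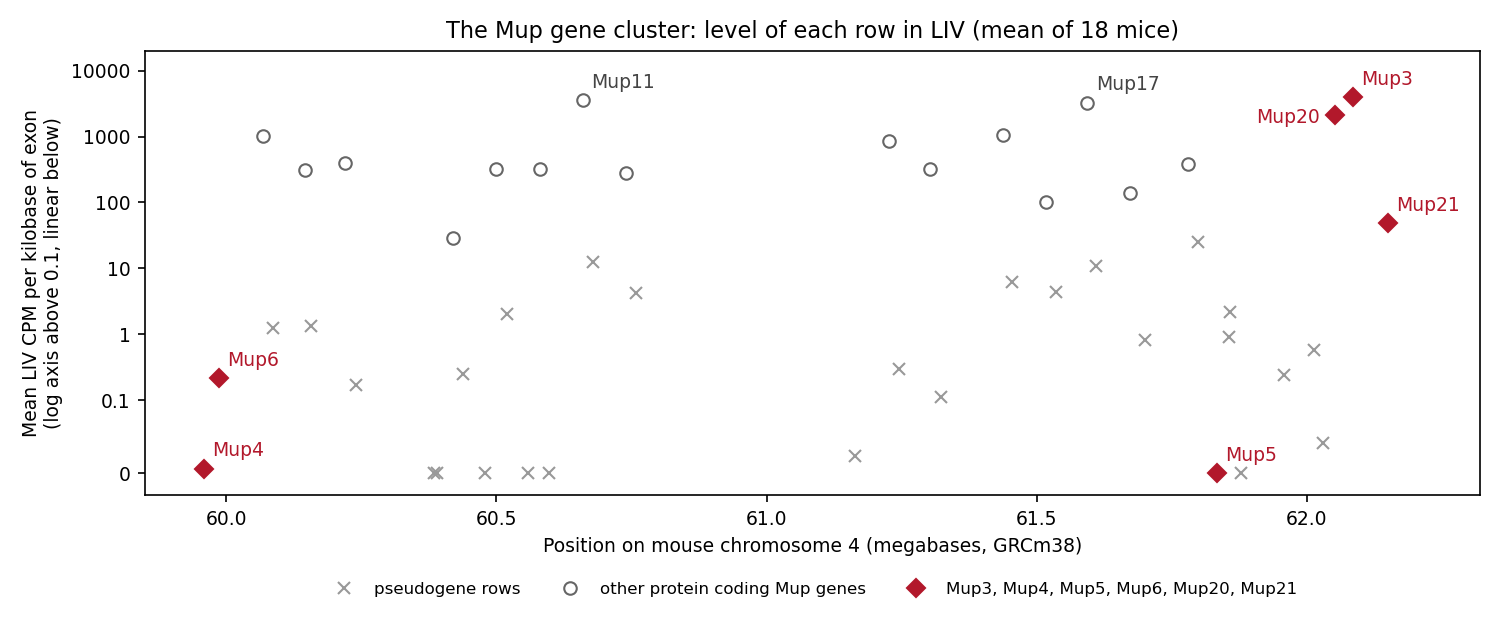
Mean LIV CPM per kilobase of exon over 18 mice (log axis above 0.1, linear below) of each Mup row at its position on chromosome 4 in megabases, with the 6 genes as diamonds, other coding genes as circles and pseudogenes as crosses. Mup4 and Mup5 sit at or near 0 and Mup6 at 0.214, while Mup20, Mup3 and Mup21 close the far end at 2128, 3941 and 48.5.

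The promoters of Mup3 and Mup21, the nearest pair by transcript among the 6 genes, were also each other's nearest by sequence. The RefSeq promoter table (build GRCm38.p6, 250 bases before each start) held entries for 4 of the 6 genes and for 10 other Mup genes, and Mup5 and Mup20 have none there. Mup3 and Mup21 were 93.4% identical, while Mup3 was 83.7% to 89.1% identical to the 10 others and Mup21 82.4% to 87.7%, and those 10 were 92.9% to 100% identical to each other (median 97.1% over 45 pairs). The letters TATATAA, searched on both strands, were found in 11 of the 14 Mup promoters and in 3.04% of all 32851. TATAAA was found in 2 of the 14, Mup4 and Mup6, where it overlaps TATATAA, and in 12.4% of all. None of the 14 held TTCNNNGAA, the core of a STAT5 element (7.02% of all), TGTTTAC (3.17%), TTGCNNAA (9.56%), TTGCGCAA (0.164%), AGATAA (9.99%), or the spelled HNF1 and glucocorticoid receptor elements (0.00913% of all for each). The runs below end with TATATAA in capitals and are shown so that genes with counts in every LIV library (Mup3 and Mup21), genes with almost none (Mup4 and Mup6) and Mup17, an abundant central gene, can be compared. They lie at chr4:62087322-62087421 (Mup3, minus strand), chr4:62150843-62150942 (Mup21, minus), chr4:59960690-59960789 (Mup4, minus), chr4:60003359-60003458 (Mup6, plus) and chr4:61595851-61595950 (Mup17, minus), before the RefSeq start in each case. By the Gencode positions the run of Mup6 lies inside its gene, and the other 4 reach into theirs with the TATATAA end. TATATAA ends 5 bases before the RefSeq start in Mup3, 2 in Mup21, 23 in Mup4 and Mup6 and 19 in Mup17.
Mup3: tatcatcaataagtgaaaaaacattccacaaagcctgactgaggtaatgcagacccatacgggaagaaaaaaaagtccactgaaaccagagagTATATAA
Mup21: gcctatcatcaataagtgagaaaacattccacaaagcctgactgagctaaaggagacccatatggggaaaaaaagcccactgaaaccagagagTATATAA
Mup4: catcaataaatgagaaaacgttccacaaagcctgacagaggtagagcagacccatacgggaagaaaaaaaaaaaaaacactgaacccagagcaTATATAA
Mup6: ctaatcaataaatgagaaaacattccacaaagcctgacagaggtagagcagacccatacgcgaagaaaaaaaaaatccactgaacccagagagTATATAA
Mup17: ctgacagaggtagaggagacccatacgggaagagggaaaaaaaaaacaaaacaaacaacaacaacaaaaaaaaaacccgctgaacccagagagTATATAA

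Genes of growth hormone signalling, the pathway known to drive hepatic Mup genes, were read beside the family in LIV. Of a list of 14, 13 were tested, and edgeR called 1 at 2 h, 2 at 12 h and 2 at 18 h, all higher than at 0 h, through Socs3 and Cish, both feedback inhibitors of cytokine receptors. Socs3 had 7.06, 7.51 and 6.54 CPM at 0 h, 16.2, 26.6 and 25.3 CPM at 2 h, and 21.8, 24.9 and 10.8 CPM at 18 h, with no overlap between 0 h and either time. Its log2 fold change in edgeR was 1.68 at 2 h (SE 0.28, adjusted p 0.020), 1.08 at 12 h (SE 0.28, adjusted p 0.018) and 1.30 at 18 h (SE 0.28, adjusted p 0.0075). Cish had 5.94, 3.88 and 6.27 CPM at 0 h, 29.1, 62.6 and 85.2 CPM at 12 h, and 81.5, 92.4 and 15.1 CPM at 18 h, again apart from 0 h. Its edgeR log2 fold change was 3.48 at 12 h (SE 0.91, adjusted p 0.029) and 3.42 at 18 h (SE 0.91, adjusted p 0.035). The median log2 fold change of the list was 0.27, 0.29, 0.19, 0.17 and 0.13 at 2, 8, 12, 18 and 22 h, where all tested genes had −0.0004, 0.0032, 0.02, 0.01 and 0.0022. At 8 h and 22 h edgeR called 0, with 4 and 5 at an unadjusted p under 0.05, while DESeq2 called 1 and 0 and limma 0 and 0.

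Leaving out single libraries ended most of these calls, although the fold changes kept their direction. Socs3 at 2 h was lost without any replicate of 0 h or replicates 2 or 3 at 2 h (edgeR adjusted p up to 0.15, log2 fold change 1.54 to 1.88 over all libraries left out). At 12 h it was lost without replicates 1 or 2 at 0 h or replicate 2 at 12 h (edgeR adjusted p up to 0.11, log2 fold change 0.81 to 1.25), while at 18 h it passed with each library left out. Cish was lost without any replicate of 0 h, without replicates 2 or 3 at 12 h for that time, and without replicates 1 or 2 at 18 h for that time (edgeR adjusted p up to 0.12 at both), with a log2 fold change of 2.96 to 3.83 at 12 h and 3.02 to 3.89 at 18 h. limma called neither gene at these times but for Socs3 at 18 h, and with the replicate number as a block Cish was not called at 18 h. Ghr, the growth hormone receptor, was lower the longer the fast, from 528, 551 and 530 CPM at 0 h to 442, 392 and 403 CPM at 22 h, with a slope of −0.21 per 10 h on the log2 scale (edgeR adjusted p 0.0034). Ptpn11, a phosphatase of the pathway, had a slope of −0.20 (edgeR adjusted p 0.029), which was lost without replicate 2 at 0 h or at 2 h (up to 0.068). With the lane as a term the 2 h call of Socs3 was kept, and those of both genes at 12 and 18 h (edgeR adjusted p 0.14 to 0.20) and the slopes of Ghr and Ptpn11 (0.96 each) were lost. The values themselves were then as large or nearly so with a larger SE: 1.18 and 1.40 for Socs3 at 12 and 18 h (SE 0.52 each), 4.54 and 4.49 for Cish (SE 1.64 each), −0.18 for the slope of Ghr (SE 0.08) and −0.19 for that of Ptpn11 (SE 0.11).

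Of 16 liver transcription factors known for Mup or sex-biased genes, 15 were tested, and edgeR called 1, Foxa2, at 12 h. It had 22.2, 19.1 and 29.3 CPM at 0 h and 52.4, 74.1 and 58.9 CPM at 12 h, a log2 fold change of 1.37 (SE 0.35, edgeR adjusted p 0.023). The call was lost without replicates 1 or 2 at 0 h or replicates 2 or 3 at 12 h (edgeR adjusted p up to 0.10, log2 fold change 1.24 to 1.55), and with the lane as a term (edgeR adjusted p 0.051, log2 fold change 2.22, SE 0.59). The medians of the list were 0.07, 0.36, 0.34, 0.16 and 0.06 at the 5 times. At 2, 8, 18 and 22 h edgeR called 0, with 6, 7, 2 and 5 at an unadjusted p under 0.05, where DESeq2 called 1, 1, 0 and 2 and limma 0 at each. In the trend edgeR, DESeq2 and limma called 0, with 4, 5 and 4 at an unadjusted p under 0.05.

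Male-biased liver genes, which like the MUPs are known to be higher in males, were tested in 12 of 12 cases. Elovl3, a fatty acid elongase, fell from 82.3, 82.5 and 128 CPM at 0 h to 37.8, 29.3 and 39.3 CPM at 18 h, a log2 fold change of −1.58 (SE 0.36, edgeR adjusted p 0.016). It was the only edgeR call of the list at that time, where DESeq2 called 1 and limma 2, and was lost without replicate 3 at 0 h or replicate 2 at 18 h (edgeR adjusted p up to 0.057, log2 fold change −1.69 to −1.34). Gstp1, a glutathione transferase, had 68.7, 115.3 and 176 CPM at 0 h and 225, 316 and 260 CPM at 22 h, a log2 fold change of 1.11 (SE 0.25, edgeR adjusted p 0.025), lost without replicates 1 or 2 at 0 h or replicates 2 or 3 at 22 h (up to 0.11, log2 fold change 0.83 to 1.48). Its slope of 0.48 per 10 h (edgeR adjusted p 0.0030) passed with each library left out. With the lane as a term the calls of Elovl3 (edgeR adjusted p 0.26) and Gstp1 (0.34 at 22 h and 0.96 for its slope) were lost, with log2 values of −1.48 for Elovl3 (SE 0.64), 1.19 for Gstp1 at 22 h (SE 0.49) and 0.36 for its slope (SE 0.17). The medians of the list were 0.01, −0.17, −0.08, −0.23 and −0.03. At 2, 8 and 12 h edgeR called 0, with 2, 4 and 2 at an unadjusted p under 0.05, DESeq2 called 0, 1 and 0, and limma 0, 0 and 1. Of 12 female-biased genes, 1 was tested, the hydroxylase gene Cyp2a4. It had 0.743, 0.485 and 0.273 CPM at 0 h and 0.667, 9.48 and 24.7 CPM at 18 h, a log2 fold change of 4.39 (SE 1.09, edgeR adjusted p 0.023) that was lost without any replicate of 0 h (up to 0.085), with the lane as a term (0.37, log2 fold change 4.02, SE 2.19) and in limma (0.37). At 2, 8, 12 and 22 h its log2 fold change was −0.20, 0.61, −0.72 and 0.51, neither edgeR, DESeq2 nor limma called it, and its unadjusted p was under 0.05 in 0 of them. In the trend DESeq2 called it, and edgeR (adjusted p 0.070) and limma did not. Replicate 3 at 18 h, the library lowest in Mup20, had the highest Cyp2a4 and also 8.12 CPM of Cux2, a factor known from female liver, where the next highest library had 1.29 CPM, and the part of this in its Mup levels was not tested.

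Secreted proteins of liver, the class to which MUPs belong, were tested in 20 of 20 cases, and Apoh was the only call at a single time. This gene of a plasma glycoprotein fell from 1545, 1498 and 1326 CPM at 0 h to 819, 639 and 639 CPM at 12 h, a log2 fold change of −1.09 (SE 0.17, edgeR adjusted p 9.8e-04). Without replicate 2 at 12 h it was −0.99, inside the fold threshold. The medians of the list were 0.03, −0.32, −0.37, −0.20 and −0.10. At 2, 8, 18 and 22 h edgeR, DESeq2 and limma called 0 of these genes, and edgeR found 5, 10, 9 and 7 at an unadjusted p under 0.05. Apoc3, of a lipoprotein, had a slope of 0.25 per 10 h (edgeR adjusted p 0.012), kept with each library left out. Fga, a fibrinogen chain, had −0.49 (edgeR adjusted p 0.044), a call that was kept in 5 of 18 cases when libraries were left out in turn: without replicate 1 at 2, 8 or 12 h, replicate 2 at 8 h or replicate 3 at 18 h (up to 0.078 without the others). Apoh at 12 h was called with the lane as a term too (edgeR adjusted p 0.010, log2 fold change −1.55), and the slopes of Apoc3 (0.96) and Fga (0.98) were then lost, at 0.25 (SE 0.11) and −0.37 (SE 0.31).

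Other lipocalins, relatives of the MUPs in structure, showed 0 calls in edgeR at every time, in the joint test and in the trend, with 10 of 13 tested. At an unadjusted p under 0.05 edgeR found 2 at 12 h and 0 at the other times, 3 in the joint test and 1 in the trend. DESeq2 called 0 at every time, 3 in the joint test and 0 in the trend, and limma called 0 throughout. Their medians were 0.06, −0.23, −0.02, −0.19 and 0.05. In a list of 16 genes of the hepatic response to fasting and feeding, all tested, edgeR called 1 at 18 h and 1 at 22 h, where DESeq2 called 2 and 4 and limma 1 and 1. Ppargc1a, a coactivator of gluconeogenic genes, rose from 4.95, 5.70 and 3.54 CPM at 0 h to 8.34, 14.9 and 16.9 CPM at 18 h, a log2 fold change of 1.38 (SE 0.33, edgeR adjusted p 0.012), lost without replicate 3 at 0 h or at 18 h (up to 0.052, log2 fold change 1.15 to 1.63). Acly, which makes cytosolic acetyl-CoA for lipid synthesis, fell from 141.2, 150 and 192.6 CPM at 0 h to 56.2, 50.96 and 65.9 CPM at 22 h, a log2 fold change of −1.54 (SE 0.16, edgeR adjusted p 6.8e-05), and passed with each library left out, as did its slope of −0.59 per 10 h (edgeR adjusted p 4.3e-04). The lane as a term ended the calls of Ppargc1a (edgeR adjusted p 0.21) and Acly (0.17 at 22 h and 0.96 for its slope). The value of Ppargc1a was then 1.52 (SE 0.61), while that of Acly was nearer 0, −0.88 at 22 h (SE 0.24) and −0.36 per 10 h (SE 0.13). The medians of the list were −0.03, 0.15, −0.42, −0.11 and −0.01. At 2, 8 and 12 h edgeR called 0, with 7, 2 and 1 at an unadjusted p under 0.05, DESeq2 called 1, 0 and 0, and limma 0 at each.

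In the joint test of the 6 times edgeR called 6 of the 13 growth hormone genes, 3 of the 15 transcription factors, 5 of the 12 male-biased genes, the female-biased Cyp2a4, 12 of the 20 secreted proteins and 4 of the 16 fasting genes, where 16% of all tested genes were called. Selenbp2, a male-biased gene, and Acly had the lowest adjusted p (edgeR, 2.4e-04 for both). These and Apoh, Elovl6 and Socs3 were called with the lane as a term and with each library left out, and the others were lost with the lane term. With replicates 1 and 2 of 0 h summed, a setting chosen after seeing the data, the calls of Socs3 at 2 and 12 h and those of Cish, Foxa2, Cyp2a4 and Gstp1 against 0 h were lost.

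The LIV genes whose level went most closely with each of the 3 were found by Pearson's r of log2 CPM (TMM scaled, 0.5 added) over the 18 libraries among 13995 tested genes outside the family. With Mup3 these were Cyp2c37 (0.75), Dnajc19-ps (0.74) and Aatk (0.73), with Mup20 CU041251.4 (0.85), CR550303.1 (0.83) and H13 (0.83), and with Mup21 Aasdhppt (0.77), BC030336 (0.77) and Mrpl15 (0.73). The 18 points share lanes and library preparation, and genes of highest r among so many are picked for it. Mup4, Mup5 and Mup6 had too few LIV counts for this.

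Across organs, Mup3, Mup20 and Mup21 belonged to liver. Pooled over the 18 libraries of an organ, Mup3 had 4207 CPM in LIV, 6.31 CPM in pgWAT and 6.02 CPM in STM, and less than 1 CPM in each of the other 6 organs. Within pgWAT it ran from 0 to 120 CPM (median 0.439) and within STM from 0 to 72.7 CPM (median 0.721), so these neighbours in the order did not differ beyond their spread. Mup20 had 1966 CPM in LIV, 3.63 CPM in STM and 2.66 CPM in pgWAT, again with wide overlap between the latter, and Mup21 had 32.5 CPM in LIV and less than 1 CPM everywhere else. The pooled level of Mup3 was 699 times higher in LIV than in STM and 667 times higher than in pgWAT, and that of Mup20 541 and 740 times higher. These ratios rest on single libraries: without replicate 2 at 12 h in STM they were 1454 for Mup3 and 981 for Mup20, and without replicate 2 at 18 h in pgWAT 2210 and 2682. In OB Mup3 had 1 count (ratio 963234, counting interval 172881 to 3.80e+07) and Mup20 had 0, so that LIV was at least 150041-fold higher, and Mup21, also at 0 in OB, was at least 2484-fold higher in LIV.

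Mup4 and Mup5 had a different order, with their highest pooled levels in OB libraries and the next in those of pgWAT. In both, their counts went with those of genes known from the nose (given with the list of nasal genes), and whether they came from cells of these organs was not tested. Mup4 had 561 counts in OB (2.45 CPM), 289 in pgWAT (1.71 CPM), 150 in BST (0.843 CPM, beside 0.859 CPM in CBL), 53 in BRN, 36 in psWAT, 1 in LIV and 0 in STM and iBAT. Mup5 had 286 counts in OB (1.25 CPM), 158 in pgWAT (0.937 CPM), 63 in CBL, 54 in BRN, 29 in psWAT, 24 in BST, 1 in iBAT and 0 in LIV and STM. Library by library Mup4 ran from 0 to 10.1 CPM in OB (median 0.733) and from 0 to 10.3 CPM in pgWAT (median 0.381), and Mup5 from 0 to 8.35 CPM in OB (median 0.121) and from 0 to 9.00 CPM in pgWAT (median 0.0252), so the ranges of OB and pgWAT overlapped over all times together, though not at 0 h, where pgWAT had 0 counts of both. Against LIV, Mup4 was 398 times higher in OB (counting interval 71.2 to 15750) and 278 times higher in pgWAT (49.6 to 11037), and Mup5 was at least 67.6-fold higher in OB and at least 50.7-fold higher in pgWAT. Replicate 3 at 22 h held 61 of the 158 counts of Mup5 in pgWAT, so the limit there is lower without it.

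LIV was tested against each other organ in an edgeR fit over 22113 genes, in which 5 of the 6 genes had enough counts and Mup6 was not tested. Mup3, Mup20 and Mup21 were higher in LIV in all 8 comparisons, the weakest being Mup20 against STM (log2 fold change 9.25, SE 0.68, adjusted p 3.5e-26). Mup4 and Mup5 were lower in LIV than in 6 organs. The number of genes called was 5 of 5 against OB (64.1% of all tested genes called), BRN (62.7%), CBL (64.4%), BST (65.3%), pgWAT (53.4%) and psWAT (56.8%), and 3 of 5 against STM (51.7%) and iBAT (49%), where Mup4 and Mup5 had no more than 1 count in either organ. A gene that passes the low count filter through the organ in which it is high had to differ. These counts, and the p values of these comparisons, therefore describe the pattern and do not test it independently. Against OB the adjusted p was 2.3e-07 for Mup4 and 3.0e-06 for Mup5 in edgeR, with 1 and 0 counts in LIV. limma did not call Mup4 against BRN, Mup5 against CBL and BST, or either against psWAT, which left 3 genes there. The lane numbers of LIV, 1 and 2, recur only in some BRN and iBAT libraries. Some of these repeat sample numbers of LIV libraries in the same lane, so the lane numbers do not show a shared run. For all 8 organs the organ and the sequencing run or lane cannot be told apart.

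**Figure D3:**
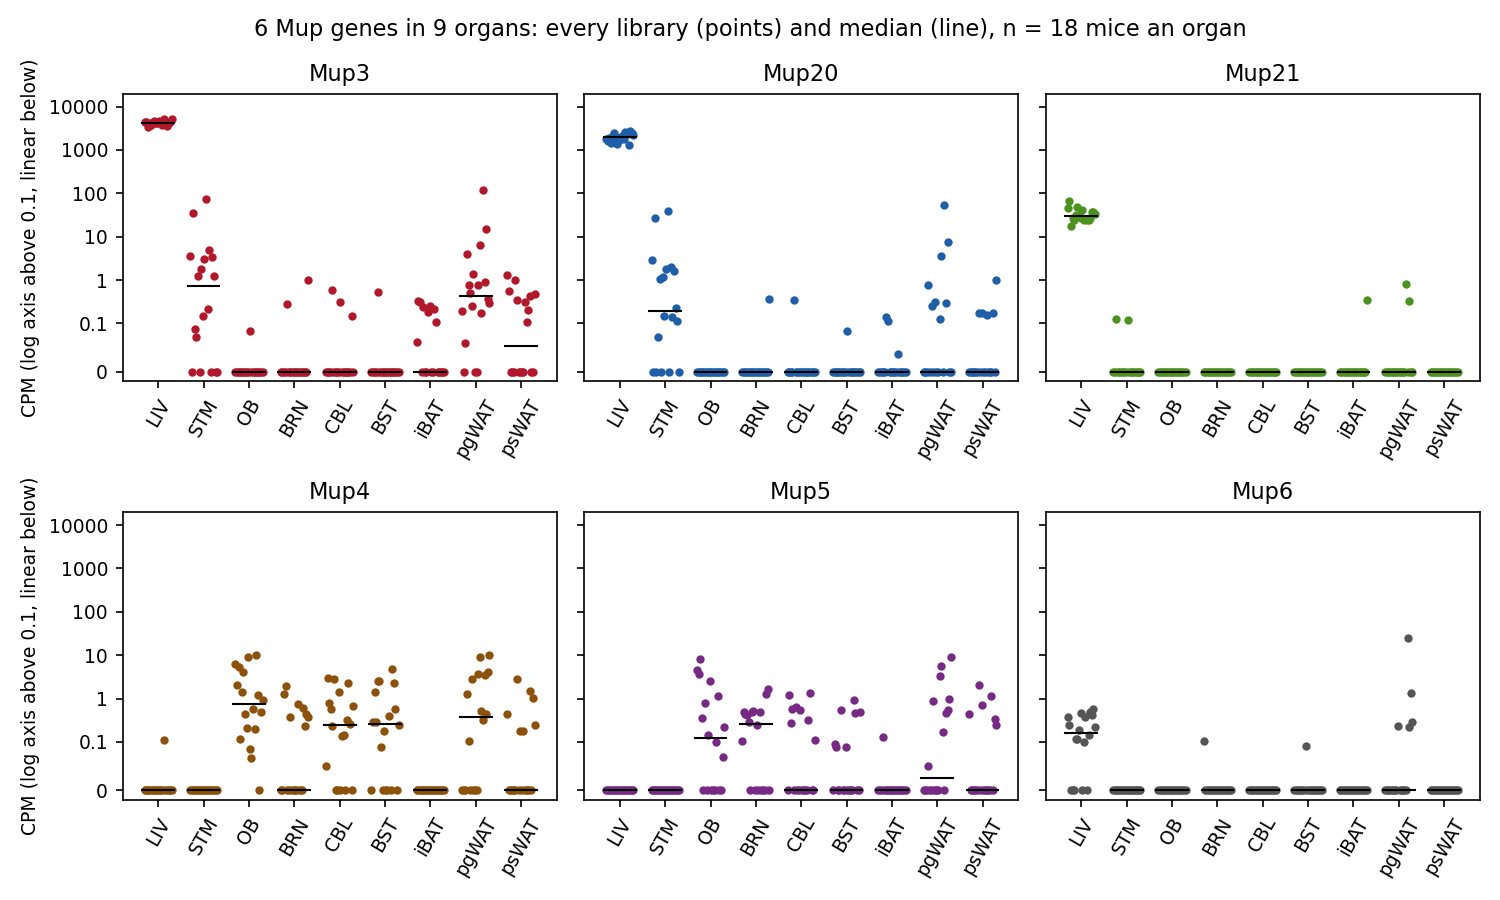
CPM of the 6 genes in every library of the 9 organs (points, 18 mice an organ) with the median of each organ (line), on a log axis above 0.1 CPM that is linear below. Mup3, Mup20 and Mup21 stand high in LIV with scattered STM and pgWAT libraries, Mup4 and Mup5 are at or near 0 in LIV, STM and iBAT and reach 10.1 and 8.35 CPM in OB, and Mup6 has a lone pgWAT library at 24.3 CPM.

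In OB, Mup5 was at its highest in fed mice. It had 75, 42 and 96 counts at 0 h, 3, 0 and 9 at 2 h, 0, 2 and 41 at 8 h, 0, 0 and 0 at 12 h, 1, 12 and 0 at 18 h, and 0, 1 and 4 at 22 h. In CPM all later OB libraries lay below the 3 of 0 h. Mup4 had 6.16, 2.00 and 5.39 CPM in OB at 0 h, 0.117, 1.43 and 4.19 CPM at 2 h, and 0.433, 0.212 and 9.18 CPM at 8 h. It had 0.0851, 0.0669 and 0.563 CPM at 12 h, 0.202, 10.1 and 1.22 CPM at 18 h, and 0, 0.483 and 0.904 CPM at 22 h. Its libraries lay below those of 0 h at 12 and 22 h and overlapped them at the other times. In pgWAT the counts were lowest at 0 h: Mup4 had 0 in all 3 libraries at 0 h, 25, 1 and 0 at 2 h, 23, 0 and 0 at 8 h, 0, 30 and 75 at 12 h, 3, 2 and 23 at 18 h, and 4, 33 and 70 at 22 h. Mup5 had 0, 0 and 0 in pgWAT at 0 h, 1, 0 and 0 at 2 h, 7, 0 and 0 at 8 h, 0, 26 and 46 at 12 h, 1, 0 and 3 at 18 h, and 5, 8 and 61 at 22 h. Few libraries carried most of the counts in both organs, and in OB, as in LIV, the lane changed at replicate 3 of 8 h. In pgWAT the counts went with the lane: the 8 libraries of lane 5 (all of 0 h, replicates 2 and 3 of 2 h and 8 h, and replicate 1 of 12 h) had 1 count of Mup4 and 0 of Mup5 in all. The 8 of lane 6 had 240 and 150, and the 2 of lane 7 had 48 and 8. Within a time the difference was the same way: Mup4 had 25 counts in lane 7 against 1 and 0 in lane 5 at 2 h, 23 in lane 7 against 0 and 0 in lane 5 at 8 h, and 30 and 75 in lane 6 against 0 in lane 5 at 12 h. Within lane 5 it had 0 or 1 count at 0, 2, 8 and 12 h. The summed counts of Mup4 and Mup5 in pgWAT also varied with those of the nasal genes listed below (r = 0.92). The part of the lane, the time and these genes in the counts was not tested.

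None of these passed the test. Where the 6 genes had enough counts in other organs, there were 50 tests in 5 organs and 25 comparisons with 0 h. In these edgeR called 0 of 50, with 0.405% of all genes tested called. At an unadjusted p under 0.05 it found 22 of the 50. This count was not set against the share of all genes at that level. The 50 tests are not separate observations, as they repeat the same genes over times that share their 0 h libraries. In pgWAT Mup4 and Mup5 had 0 counts at 0 h, so they passed the filter through later times only. The lowest adjusted p was 0.060, for Mup5 in OB at 18 h (log2 fold change −3.62, SE 1.14). With no filter on low counts edgeR made 8 calls, of Mup4 and Mup5, which were not set against the share of all genes called there. No other tool was run on these comparisons.

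Mup4 and Mup5 varied with genes known from the glands and mucosa of the nose. For this a list of 14 such genes was chosen after the OB values of Mup4 and Mup5 had been seen, led by the odorant-binding protein gene Obp1a, and it is described with no test. In OB all 14 were detected, with 34 to 2980 counts a library (median 347), 2896 of the 15014 in all from Obp1a. At 0 h the list had 2707, 792 and 2166 counts in OB, where Mup4 and Mup5 together had 178, 65 and 158. The log2 counts of the list and of Mup4 plus Mup5 had r = 0.90 over the 18 OB libraries, 0.92 in CBL, 0.91 in BST, 0.92 in pgWAT, 0.69 in BRN and 0.61 in psWAT, between points that also share depth. In pgWAT, far from the nose, all 14 were likewise detected, with 0 to 1659 counts a library (median 74). In LIV 6 of the 14 were detected, nearly all counts (1293 of 1507) from Obp2a, and Obp1b, Obp2b, Lcn3, Lcn11, Bpifa1, Bpifb3, Bpifb4 and Bpifb9a were at 0. How these genes came into the libraries of brain and fat, and their part in the Mup values, was not tested.

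**Figure D4:**
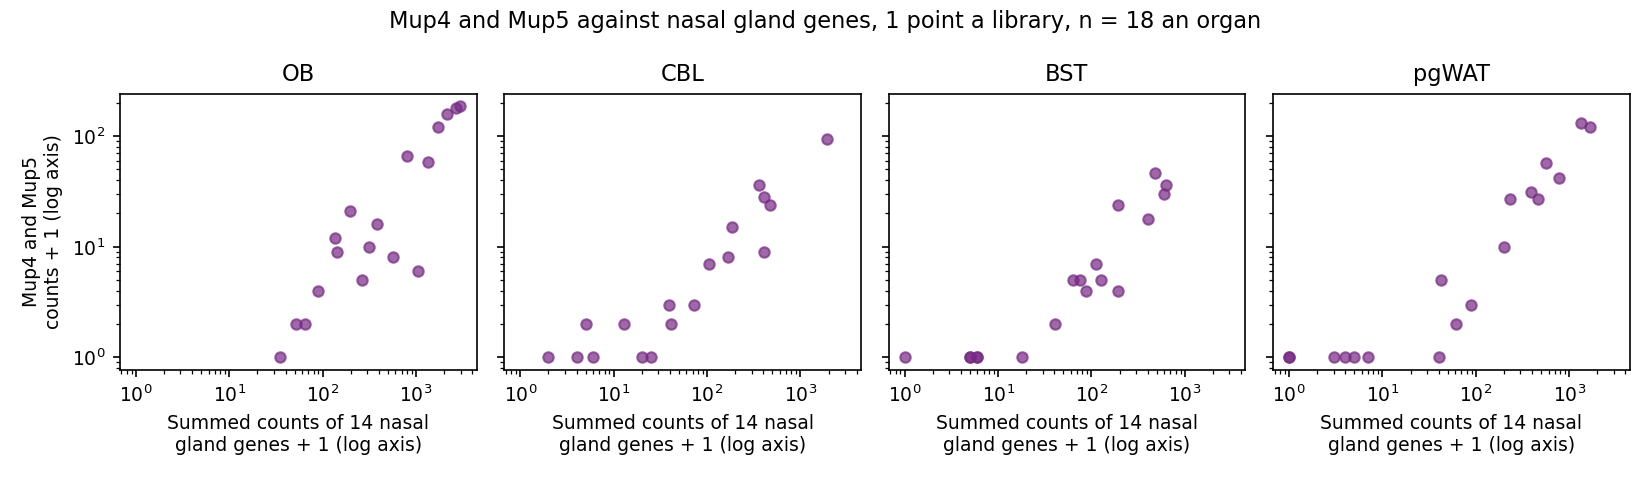
Counts of Mup4 plus Mup5 against the summed counts of the 14 nasal genes in each library of OB, CBL, BST and pgWAT (points, 18 mice an organ, both log axes with 1 added). Libraries with many counts of the nasal list have many of Mup4 and Mup5 in all 4 organs.

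In STM and pgWAT, libraries with more Mup3 and Mup20 counts also had more of Alb. Mup3 in STM had 27, 0 and 280 counts at 0 h, 1, 1 and 14 at 2 h, 0, 17 and 2 at 8 h, 25, 529 and 1 at 12 h, 37, 0 and 33 at 18 h, and 11, 0 and 0 at 22 h. Replicate 2 at 12 h and replicate 3 at 0 h held most of them, and these had 5672 and 2732 counts of Alb, with a median of 51 over the 18 STM libraries. In pgWAT, 754 of the 1063 Mup3 counts were in replicate 2 at 18 h, which had 21314 counts of Alb where the median was 190.5. Over the 18 libraries the log2 counts of Mup3 plus Mup20 and of Alb had r = 0.94 in STM and 0.82 in pgWAT, with shared depth. Pooled, there were 103.2 counts of Mup3 and Mup20 per 1000 of Alb in LIV, 146.1 in STM and 54.4 in pgWAT. The other 6 organs had 1 to 41 counts of Mup3 and Mup20 together, with r from 0.16 (OB) over 0.44 (iBAT), 0.58 (psWAT) and 0.60 (BRN) to 0.94 (BST) and 0.95 (CBL).

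Mup6 was rare in every organ but for a lone library. It had 178 counts in pgWAT, 35 in LIV, 1 in BRN, 1 in BST and 0 in the other 5 organs, and most of the 178 came from replicate 3 at 18 h (24.3 CPM), with at most 11 in any other pgWAT library. The pooled ratio of pgWAT over LIV, 4.90, rests on that library and was 0.487 without it. It also had many counts of genes known from the epididymis, a list of 12 chosen after the Mup6 value had been seen, and was the highest pgWAT library for 11 of them. For some it was so by far: Lcn5 had 22932 counts there and at most 74 in the 17 others, Defb15 4734 and 8, and Rnase9 9940 and 28. For others the margin was smaller, with 8834 and 5145 for Lcn9 and 8121 and 4349 for Rnase10. Crisp1, the most abundant of the list in pgWAT, was also above its median of 60.5 there, with 2887 counts, but reached 180082 in another library. The list summed to 151026 counts in this library and to more, 209145, in replicate 2 at 22 h, which had 11 counts of Mup6, the next highest. The lowest sum in pgWAT was 12 and the median 98.5, and its log2 counts had r = 0.73 with those of Mup6. In LIV 4 of the 12 were detected, with 107 of 201 counts from Rnase13, and 8 were at 0, Crisp1, Defb15 and Rnase9 among them.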

How the data were processed

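The deposited table held counts per gene and library, which the authors made from stranded paired reads with TopHat2 2.1.1 on GRCm38.p5 and HTSeq 0.9.1 with the Gencode M16 annotation, keeping uniquely mapped reads. From these, CPM was computed per library total. A library was left out of tests where the log of its total lay over 2 SD below its organ's mean, which removed 5 of 162 (BRN 8 h replicate 3, BRN 18 h replicate 1, STM 12 h replicate 3, iBAT 22 h replicate 1 and psWAT 22 h replicate 2) and no LIV library. edgeR 4.0.16 (quasi-likelihood test, TMM factors, R 4.3.3) was run on genes with at least 10 counts in 3 libraries, checked on simulated data, with Benjamini-Hochberg adjustment over all genes tested. Alternatives were DESeq2 1.42.0, limma 3.58.1, other scalings and filters, the lane and the replicate number as terms, each LIV library left out, and 0 h replicates 1 and 2 summed (the last chosen after seeing the data). DESeq2 called 0.513%, 0.292%, 2.22%, 2.70% and 1.37% of all LIV genes at 2, 8, 12, 18 and 22 h, 25.6% jointly and 12.3% in the trend. For limma these shares were 0.050%, 0.0856%, 1.55%, 1.83%, 0.592%, 12.9% and 8.84%. Counts at an unadjusted p under 0.05, also those of the gene lists, stand without the share of all genes at that level. Gene positions, lengths and transcripts came from Gencode M21. The 6 genes and the gene lists were chosen with earlier results of these data known. Genes named are the 6, other Mup rows, called genes of the lists with a few others, the 3 genes of highest correlation with each, the nearest neighbours on the chromosome and the genes ranking next to them. The labels give the same 18 animals for all organs, yet over 10940 genes the deviations of an organ from its time means had a mean r with those of LIV of the same animal between −0.03 (pgWAT) and 0.04 (CBL). Fits with the animal as a block changed no call.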

Additional observations from a re-analysis of the deposited data

Results flagged for a closer look

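In OB every library at 22 h had less Mup4 and Mup5 than the 3 at 0 h, and in pgWAT every library at 22 h had more. The mean of Mup4 was 4.52 CPM at 0 h and 0.462 CPM at 22 h in OB, a difference of −4.05 CPM, and 0 and 4.92 CPM in pgWAT, so the OB difference minus the pgWAT difference was −8.97 CPM. For Mup5 the means were 5.49 and 0.0983 CPM in OB (−5.40 CPM) and 0 and 3.51 CPM in pgWAT, a value of −8.90 CPM. The pgWAT means at 22 h rest largely on replicate 3, which had 10.3 CPM of Mup4 and 9.00 CPM of Mup5. The difference between the organs was not tested, and neither gene passed edgeR's test in either organ at 22 h. In both organs the 0 h and 22 h libraries were in different lanes (3 and 4 in OB, 5 and 6 in pgWAT), so these 2 times cannot be compared within a lane. The 8 pgWAT libraries of lane 5, whatever their time, had 1 count of Mup4 and 0 of Mup5 in all. The list of 14 nasal genes summed to 68.8 to 188.3 CPM at 0 h and 4.13 to 10.9 CPM at 22 h in OB, and to 0.242 to 3.73 CPM and 22.1 to 195 CPM in pgWAT. The part of the lane and of these genes in the Mup values was not tested.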

How the results depend on the processing

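Depth limits what can be said of Mup4, Mup5 and Mup6 in LIV, and 3 mice a time limit the rest: the log2 fold changes of Mup21 had an SE of 0.34 to 0.35. The count of the 6 genes called against 0 h in LIV, 0 over the 5 times, was also 0 under DESeq2, limma, the other scalings, the lane term and no filter, and 0 to 1 with each library left out. It was 1 without replicate 3 at 0 h, where Mup21 passed at 18 h, so the count at 18 h was likewise 0 to 1. With no filter it was 0 through the fold threshold. There the edgeR adjusted p of Mup21 was 0.0033 at 2 h, 0.011 at 12 h and 4.2e-06 at 18 h. Its log2 fold changes were −0.67, −0.56 and −0.90, and these p values rest on the shared spread described above. In the joint test the count was 1 with no filter on low counts (Mup21) and 0 to 1 with each library left out, and in the trend 0 throughout. For all Mup rows the number of calls over the 5 times, 0 in edgeR, was 2 with DESeq2, 12 with no filter, 1 with limma, and 0 to 10 with each library left out (10 without replicate 1 at 18 h). In the joint test it was 9 with DESeq2, 24 with no filter, and 0 to 7 with each library left out (7 without replicate 1 at 18 h, 2 without replicate 3 at 8 h, 1 without replicate 3 at 0 h and 1 without replicate 2 at 18 h). With no filter edgeR called 15.8% of all 25595 genes in the joint test. At single times it called from 0.715% (8 h) to 1.98% (18 h) of them. The causes were not tested. Of single values, that of Mup3 at 2 h (log2 fold change 0.00082) was −0.0019 with DESeq2, −0.0019 with RLE factors and −0.0017 in lane 1 alone, and that at 18 h was 0.0048 with 0 h replicates 1 and 2 summed. With the lane as a term Mup20 at 12 h was −0.036, Mup21 at 22 h 0.14 and the slope of Mup21 0.088 per 10 h. With each library left out, Mup3 ran from −0.12 to 0.069 at 2 h, −0.10 to 0.093 at 8 h, −0.10 to 0.086 at 12 h and −0.20 to 0.039 at 18 h, and Mup20 from −0.023 to 0.35 at 2 h, −0.012 to 0.13 at 12 h and −0.070 to 0.34 at 18 h. Mup21 ran from −0.76 to 0.041 at 8 h, −1.27 to −0.47 at 18 h and −0.68 to 0.12 at 22 h, and its slope from −0.19 to 0.013. The share of all LIV genes called moved too: 0% to 0.797% at 2 h, 0.0071% to 0.715% at 8 h, 0.846% to 2.93% at 12 h, 0.521% to 2.85% at 18 h, 0% to 1.38% at 22 h, 2.1% to 25.6% in the joint test and 0% to 12.3% in the trend. LIV against the other organs gave 36 calls, and 31 to 36 under the alternatives, with 3 against 5 for psWAT under limma. Times in other organs gave 8 calls with no filter against 0, not set against the share of all genes called with no filter. Equal replicate numbers did not pair the LIV libraries (45 pairs, median r −0.03, −0.32 to 0.20). With the replicate number as a replicate block 0 of the 6 genes were called at each time, in the joint test and in the trend, and with the animal as a replicate block 36 calls were made against other organs.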
